A study of Rattus norvegicus with 6 samples.

Results

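The genes described here are the D-type cyclins Ccnd1, Ccnd2 and Ccnd3, their partner kinases Cdk4 and Cdk6, the kinase inhibitors Cdkn1a, Cdkn1b, Cdkn2b and Cdkn2c, and Rb1, the substrate on which these proteins converge. They were chosen by name. Every probe set assigned to exactly 1 symbol among these 10 genes was taken, which gave 15 of the 31099 on the array; the array names 14217 genes in all. Expression was measured on 6 one-colour Affymetrix arrays in RK3E, a cell line from rat kidney epithelium that an adenovirus early-region gene made immortal. RK3E cells were transfected with a GLI1 expression construct, transformed foci were picked, and single foci were grown on as lines; GLI1 is the zinc finger factor that carries the Hedgehog signal to its target genes. The GLI1 group held 4 arrays: 2 of clone II, 1 of clone I and 1 for which the labels give no clone, the last pair being named the other GLI1 arrays below. The parental group held 2 arrays of untransfected RK3E cells. All cells grew in DMEM with 10% FBS, and all carry the immortalising adenovirus gene. The labels give neither the promoter that drives GLI1 nor an empty-vector line, and each focus is 1 transformation event.

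D-type cyclins are made when growth signals reach a cell, and they bind and activate Cdk4 and Cdk6. The active kinases phosphorylate the retinoblastoma protein, which then lets go of the E2F factors that switch on the genes of S phase. Cdkn2b and Cdkn2c, inhibitors of the INK4 family, bind Cdk4 and Cdk6 directly and keep the cyclin away. Cdkn1a and Cdkn1b, of the CIP/KIP family, bind the assembled complexes and block above all the Cdk2 complexes that act later. Ccnd1 and Ccnd2 are known targets of Hedgehog signalling in the cerebellum of developing mice. The adenovirus product of RK3E binds the retinoblastoma protein, a fact that holds for all 6 arrays.

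Across the arrays, Gli1 signal was 3356 to 9092 in GLI1 arrays and 36 to 90.8 in parental arrays, in the direction of the labels; the species of the transfected GLI1 is not given, so the probe set may read it or the cells' own gene. The array medians were 568 to 691 in GLI1 arrays and 647 to 696 in parental cells. The ratio of GAPDH signal at the 3' end to that at the 5' end, which rises as RNA is degraded, stood apart for replicate 1 of clone II (7.52) and replicate 1 of parental cells (3.66); the other arrays had 1.39 to 2.09. The labelled epithelial type was only partly visible: of 5 epithelial markers only Krt8 and Epcam passed the signal filter, and Krt18, Krt19 and Cdh1 did not. Krt8 and Epcam rose in the other GLI1 arrays, 4.21-fold (adjusted p = 0.00359) and 4.43-fold (adjusted p = 0.00584), but not in clone II, where Krt8 gave log2 -1.09 (adjusted p = 0.0538) and Epcam 0.14 (adjusted p = 0.839). The 5 fibroblast markers summed to 3801 to 5500 in GLI1 arrays, against 113387 to 126869 in parental arrays, and 3 of the 4 tested (Col1a1, Col3a1 and Ogn) fell. None of 4 immune or 3 endothelial markers on the array passed the filter; of 3 tested neural markers, 2 fell (Map2 and Nes). This loss of fibroblast marker signal moved with every difference between the groups below, and its part in them was not tested. In bulk RNA, fewer cells of a type and less RNA per cell cannot be told apart.

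Among the D-type cyclins, Ccnd2 and Ccnd1 were higher in the GLI1 arrays and Ccnd3 was lower on all 4 of them. Ccnd2, read by 1370810_at, had a signal of 14459.9 and 18137 on the clone II arrays, 82157 on the array with no clone given and 54796 on clone I, against 1281 and 1299 on the parental arrays. Every GLI1 array lay far above both parental arrays, and those 2 hardly differed. On the log2 scale the means were 15.01 ± 1.22 (SD, n = 4) in GLI1 arrays and 10.33 ± 0.01 (SD, n = 2) in parental arrays. The difference was 4.68 (SE 0.63, 95% interval 3.26 to 6.09, adjusted p = 0.00213, limma), a 25.6-fold rise. It was the member probe set with the smallest adjusted p, and the only one whose call held in all 15 alternative settings (adjusted p 0.000798 to 0.0359).

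**Figure D1:**
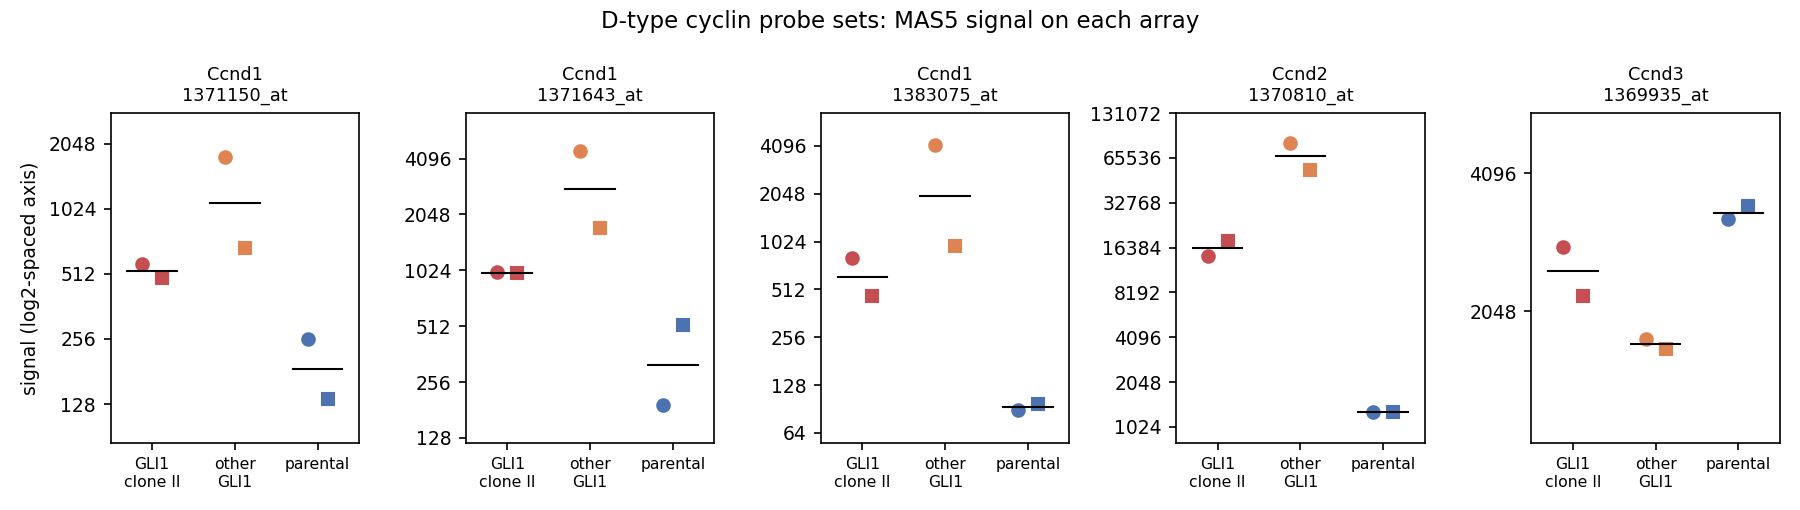
MAS5 signal of the 5 D-type cyclin probe sets on each of the 6 arrays, on axes spaced by log2 with a scale of its own for each probe set. Columns are GLI1 clone II, the other GLI1 arrays and parental cells; circles are replicate 1 (among the other GLI1 arrays, the one with no clone given), squares replicate 2 (clone I there), and bars the mean on the log2 scale. For Ccnd1 and Ccnd2 clone II lies between the other GLI1 arrays and parental cells, and for Ccnd3 the same order runs downwards from parental cells.

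The clone difference of Ccnd2 was the largest among the 12 tested probe sets, and it was known before these genes were chosen, so it is given without a test. Log2 signal was 13.98 ± 0.23 (SD, n = 2) in clone II and 16.03 ± 0.41 (SD, n = 2) in the other GLI1 arrays, a difference of -2.05, or 4.14-fold less in clone II. The array with no clone given and clone I both lay above both clone II arrays. Leaving out any 1 array moved this difference between -2.34 and -1.76. Against the parental arrays, Ccnd2 rose 12.6-fold in clone II (log2 3.65, SE 0.24, adjusted p = 0.000135) and 52.0-fold in the other GLI1 arrays (log2 5.70, SE 0.24, adjusted p = 1.5e-05). These comparisons share the parental arrays. The order of the 6 arrays followed Gli1 signal only in part: Gli1 was 3500 and 4611 in clone II, 9092 with no clone given and 3356 in clone I, so clone I had the lowest Gli1 signal of the 4 and the second highest Ccnd2 signal.

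Ccnd1 is read by 3 probe sets, and all gave higher signal in every GLI1 array. Probe set 1383075_at had 808.5 and 469 on the clone II arrays, 4125 on the array with no clone given and 963 on clone I, against 88.8 and 96.9 on the parental arrays. Probe set 1371643_at had 1000.1 and 987 in clone II, 4509 with no clone given and 1729.9 in clone I, against 193 and 522 on the parental arrays. Probe set 1371150_at had 571 and 488 on clone II, 1774 with no clone given and 672 on clone I, against 256 and 136 on the parental arrays. The GLI1 arrays came in 1 order on all 3 probe sets, highest with no clone given, then clone I, then clone II replicate 1 and replicate 2. Since the probe sets read the same RNA, they are not separate evidence.

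The rises of Ccnd1 were 11.9-fold for 1383075_at (log2 3.58, SE 0.74, adjusted p = 0.0148), 5.25-fold for 1371643_at (log2 2.39, SE 0.64, adjusted p = 0.0408) and 4.07-fold for 1371150_at (log2 2.03, SE 0.56, adjusted p = 0.0442). Parental signal was dim, with mean log2 values of 6.54 to 8.31 that lie under the filter of 8.33, so these probe sets were tested only because they were high in GLI1 arrays. With 32 added to each signal the folds were 9.21, 4.83 and 3.62. Each of these calls was lost without either parental array. Without parental replicate 1 the log2 differences were 3.52 for 1383075_at, 1.68 for 1371643_at and 2.49 for 1371150_at. Without parental replicate 2 they were 3.64, 3.11 and 1.57. By limma with no filter, 1371643_at (adjusted p = 0.0529) and 1371150_at (0.0686) were not called. Nor were these 2 called without the intensity trend (0.069 and 0.0577) or without clone I (0.0917 and 0.0878). In these 3 settings 1383075_at kept its call. In clone II alone, 1383075_at rose (log2 2.73, adjusted p = 0.0387; lost in 8 of 13 settings), while 1371643_at (log2 1.65, adjusted p = 0.114) and 1371150_at (log2 1.5, adjusted p = 0.142) did not pass. In the other GLI1 arrays all 3 rose, by log2 4.43 (adjusted p = 0.00468), 3.14 (0.0103) and 2.55 (0.0225). Clone II minus the other GLI1 arrays gave -1.70 to -1.05 over the 3 probe sets, and none passed (adjusted p 0.51 to 0.663).

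Ccnd3, the third D-type cyclin, went the other way in level. Its signal on 1369935_at was 2833 and 2214 on the clone II arrays, 1779 with no clone given and 1689 on clone I, against 3258 and 3471 on the parental arrays. All 4 GLI1 arrays lay below both parental arrays, and the log2 difference of -0.69 (SE 0.26, 95% interval -1.27 to -0.11) did not pass (adjusted p = 0.111). In the other GLI1 arrays it fell (log2 -0.96, SE 0.24, adjusted p = 0.0366). That call was lost with any 1 of the other GLI1 or parental arrays left out (adjusted p 0.0747 to 0.168) and with each array centred on its median (0.0651). In clone II the difference was -0.43 (adjusted p = 0.318).

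The partner kinases gave no difference that passed. Cdk4 signal on 1369950_at was 13087 and 31707 on the clone II arrays, 22048 with no clone given and 32611 on clone I, against 15390.0 and 32746 on the parental arrays. The 2 lowest Cdk4 signals belonged to the 2 arrays whose GAPDH ratio stood apart; the part of RNA quality in this was not tested. The log2 difference was 0.06 (SE 0.40, adjusted p = 0.944), with a 95% interval of -0.86 to 0.97 that spans both signs, and -0.21 (adjusted p = 0.787) without those 2 arrays. Its sign changed in 4 of 15 settings. Cdk6 was dim on 1375757_at, with 444 and 156 on clone II, 245 with no clone given and 239.6 on clone I, against 159.9 and 320.5 on the parental arrays. It lay under the filter and was not tested; fitted with no filter, its log2 difference was 0.16 (adjusted p = 0.926).

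**Figure D2:**
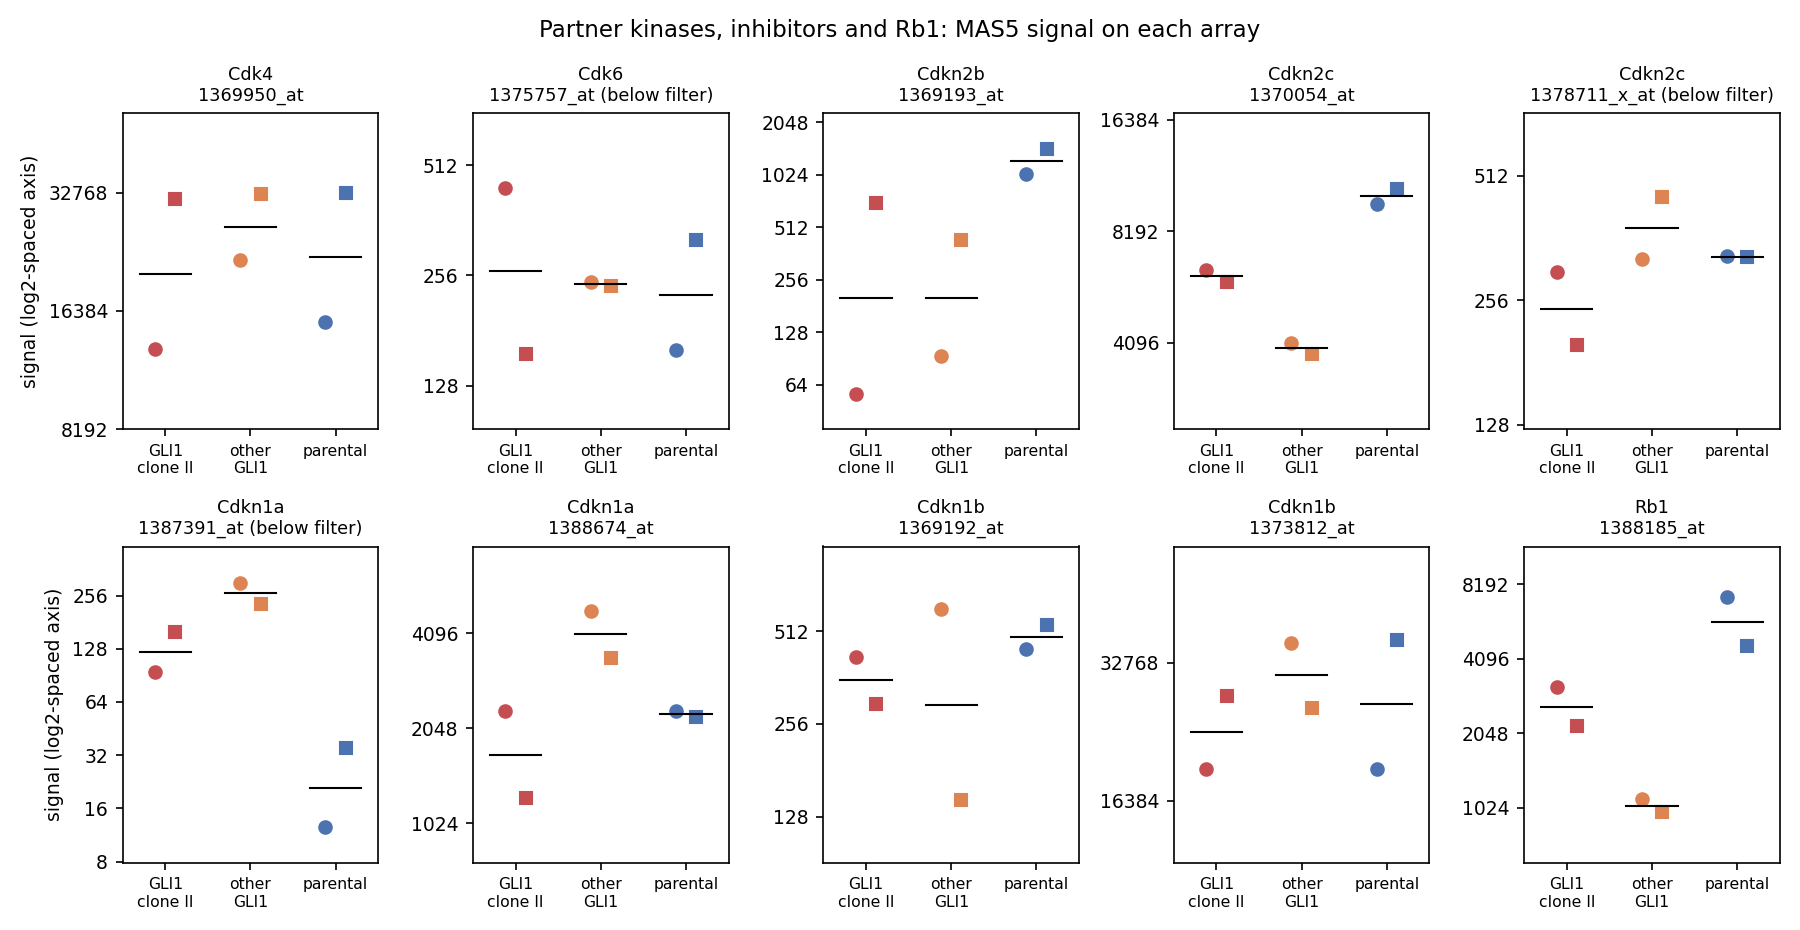
MAS5 signal of the 10 probe sets of the partner kinases, the inhibitors and Rb1 on each of the 6 arrays, on axes spaced by log2 with a scale of its own for each probe set; columns, symbols and bars are those of the plot of the cyclins. For Rb1 and Cdkn2c 1370054_at all GLI1 arrays lie below both parental arrays, with clone II between; Cdkn2b splits by replicate number within the GLI1 arrays, and Cdk4 and Cdkn1b overlap between the groups.

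Both INK4 inhibitors had lower signal in every GLI1 array on their brightest probe set. Cdkn2c, read by 1370054_at, had 6421 and 5977 on clone II, 4081 with no clone given and 3822 on clone I, against 9735 and 10689 on the parental arrays. It fell 2.06-fold (log2 -1.04, SE 0.25, adjusted p = 0.0269), with group means of 12.27 ± 0.38 (SD, n = 4) in GLI1 and 13.32 ± 0.10 (SD, n = 2) in parental arrays. The call was lost without parental replicate 1 (adjusted p = 0.155), parental replicate 2 (0.168) or clone I (0.0608), and with median centring (0.0755). It fell in the other GLI1 arrays too (log2 -1.37, adjusted p = 0.00354; lost in 1 of 14 settings), and the clone II difference of -0.72 did not pass (adjusted p = 0.0533), but it passed with the filter at the 60th percentile (0.0453) and without clone I (0.0489). The second Cdkn2c probe set, 1378711_x_at, was dim and not tested; it had 299 and 199.5 on clone II, 322 with no clone given and 453 on clone I, against 326 and 326 on the parental arrays. Here the groups overlapped, so the 2 Cdkn2c probe sets disagreed.

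Cdkn2b, read by 1369193_at, had 57.0 and 703 on the clone II arrays, 93.2 with no clone given and 430.2 on clone I, against 1030.5 and 1445 on the parental arrays. All 4 GLI1 values were lower than both parental values, but they spread widely, and both replicate 1 arrays were the low ones. The log2 difference was -2.61 (SE 0.94, 95% interval -4.73 to -0.49) and did not pass (adjusted p = 0.102). It was -2.61 in clone II and in the other GLI1 arrays alike, and neither passed (adjusted p = 0.193 and 0.174). The 2 clone II arrays differed: replicate 1 alone, the array with a GAPDH ratio of 7.52, gave -4.42, and replicate 2 alone gave -0.80. Over the whole GLI1 group, the difference without clone II replicate 2 was -3.21 and passed (adjusted p = 0.0432). Without clone II replicate 1, the array with the GAPDH ratio of 7.52, the difference was smaller and did not pass (adjusted p = 0.131). This probe set too cleared the filter only through 1 group, here the parental one.

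Of the CIP/KIP inhibitors, Cdkn1a and Cdkn1b did not pass in any comparison. Cdkn1a, a target of p53, had on 1388674_at 2313 and 1228 in clone II, 4809 with no clone given and 3414 on clone I, against 2322 and 2216 in the parental arrays. The other GLI1 arrays lay above both parental arrays and clone II lay between or below them, and the whole-group log2 difference was 0.20 (SE 0.46, adjusted p = 0.818). Clone II minus the other GLI1 arrays was -1.27 (SE 0.34, unadjusted p = 0.00517, adjusted p = 0.277, limma). The dim probe set 1387391_at gave 94.6 and 159 in clone II, 303.5 with no clone given and 229.7 on clone I, against 12.6 and 35.0 in the parental arrays. It was all above parental cells but lay under the filter; with no filter its log2 difference was 3.10 (SE 0.81, adjusted p = 0.0513). With parental signals this dim, the size of that difference depends on the lowest values, and it is not set against that of 1388674_at.

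Cdkn1b, the inhibitor removed by the Skp2 ubiquitin ligase when cells enter S phase, had on 1373812_at 19197 and 27802 in clone II, 36263 with no clone given and 26137 on clone I, against 19234 and 36740.0 in the parental arrays. The lowest signals were again on the 2 arrays whose GAPDH ratio stood apart, and the part of RNA quality was not tested. The log2 difference was 0.00 (SE 0.30, 95% interval -0.68 to 0.69, adjusted p = 0.995), and its sign changed in 5 of 15 settings. Probe set 1369192_at had 422 and 298 in clone II, 603 with no clone given and 145 on clone I, against 448 and 538 in the parental arrays, a log2 difference of -0.60 (SE 0.56, adjusted p = 0.531).

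Rb1 encodes the protein that Cdk4 and Cdk6 phosphorylate, and its transcript was lower in all GLI1 arrays. The signal on 1388185_at was 3139 and 2193 on the clone II arrays, 1106 with no clone given and 981 on clone I, against 7278 and 4605 on the parental arrays. The log2 means were 10.69 ± 0.80 (SD, n = 4) in GLI1 arrays and 12.50 ± 0.47 (SD, n = 2) in parental arrays, a 3.50-fold fall (log2 -1.81, SE 0.46, adjusted p = 0.0344). In the other GLI1 arrays the fall was 5.56-fold (log2 -2.47, SE 0.30, adjusted p = 0.00201), and that call held in all 14 alternative settings. In clone II the 2.21-fold lower level did not pass (log2 -1.14, SE 0.30, adjusted p = 0.0521), but it passed with 32 added to each signal (adjusted p = 0.0497) and with the filter at the 60th percentile (0.0482). Clone II minus the other GLI1 arrays was 1.33 (SE 0.30, unadjusted p = 0.00212, adjusted p = 0.198). For the whole group the call was lost without parental replicate 1 (adjusted p = 0.267), parental replicate 2 (0.102) or clone I (0.0704), and with median centring (0.0527).

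The promoters of the 2 members that fell, Rb1 and Cdkn2c, are shown because E2F factors, the partners of the retinoblastoma protein, are known to act on cell cycle promoters of this kind. The 250 bases before the annotated start are RefSeq sequence of the rat GRCr8 build, read 5′ to 3′ on the gene's strand, with matches to an E2F core, TTCCCGC on either strand, in capitals. Rb1 lies at chr15:54911858-54912107 on the minus strand, and Cdkn2c at chr5:129644892-129645141 on the minus strand.
Rb1: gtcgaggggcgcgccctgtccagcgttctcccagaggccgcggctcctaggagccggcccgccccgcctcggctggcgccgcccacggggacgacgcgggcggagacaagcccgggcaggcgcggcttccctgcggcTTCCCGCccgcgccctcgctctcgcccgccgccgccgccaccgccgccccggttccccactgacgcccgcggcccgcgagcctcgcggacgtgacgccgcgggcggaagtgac
Cdkn2c: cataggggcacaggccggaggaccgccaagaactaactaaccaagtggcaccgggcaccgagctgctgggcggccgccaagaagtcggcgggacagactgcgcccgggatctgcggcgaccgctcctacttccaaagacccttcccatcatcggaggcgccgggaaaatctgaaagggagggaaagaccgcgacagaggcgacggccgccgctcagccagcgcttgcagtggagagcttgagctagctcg
Rb1 holds 1 match, 113 bases before the start, and Cdkn2c holds none in this window; 3.36% of 33469 rat promoter windows of this length hold one. With the next 50 bases past the start included, Cdkn2c holds a match too, as do 4.21% of the 300-base windows. The core was picked after the sequences were seen. Of the 10 genes 7 had a promoter entry, and Ccnd1, Ccnd2 and Cdk6 did not match. The GLI site GACCACCCA, searched on both strands, was in none of the 7 and in 0.338% of all windows, and the E-box CACGTG was in Cdk4 alone of the 7 and in 5.59% of all windows.

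**Figure D3:**
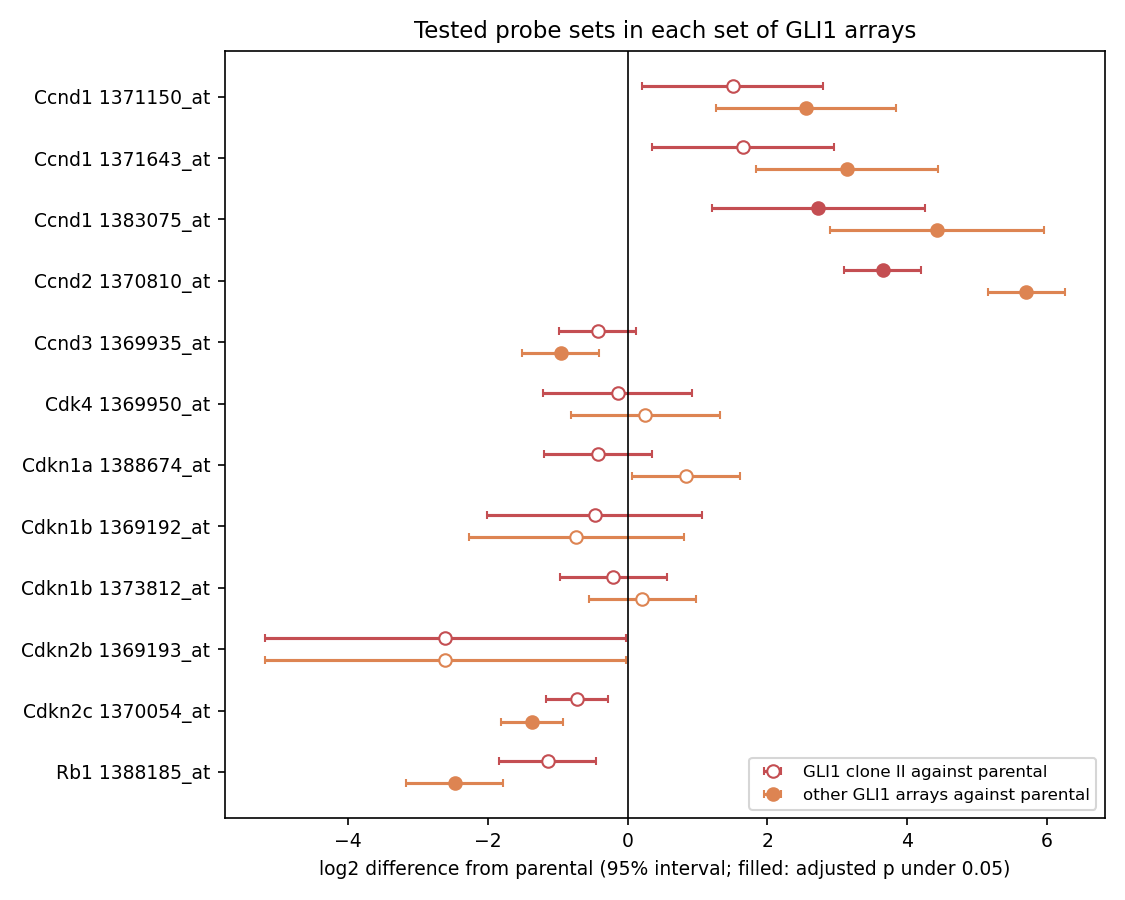
Log2 difference from parental cells (horizontal axis) of the 12 tested probe sets in GLI1 clone II and in the other GLI1 arrays, 2 arrays each against 2 parental arrays, with 95% intervals from the 3-level limma fit. Filled points have an adjusted p under 0.05; the cyclins Ccnd1 and Ccnd2 lie to the right in both sets of arrays, and Cdkn2c and Rb1 lie to the left, farther in the other GLI1 arrays.

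Counted over probe sets, 12 of the 15 were tested: in GLI1 against parental cells 4 rose (Ccnd1 on 3 probe sets and Ccnd2), 2 fell (Cdkn2c and Rb1) and 6 did not pass. Over all 18625 tested probe sets 5.84% rose and 7.25% fell. With each array centred on its median, which put the median over all of them at 0.17, 4 members rose and 0 fell, and 60.6% of all calls were rises, against 44.6% without centring. The median log2 difference of the 12 was 0.03, beside 0.005 over all tested probe sets. Without either parental array only Ccnd2 was called, and likewise without the 2 arrays whose GAPDH ratio stood apart. Without those 2 arrays the log2 differences were 3.67 for Ccnd1 on 1383075_at, 2.62 on 1371150_at and 1.92 on 1371643_at, -1.24 for Cdkn2c and -1.79 for Rb1, beside 3.58, 2.03, 2.39, -1.04 and -1.81 over all arrays. Without clone I, 2 probe sets rose (Ccnd2 and Ccnd1 on 1383075_at) and none fell. The GLI1 arrays lay wholly above the parental arrays for 4 tested members (19.0% of all tested probe sets) and wholly below for another 4 (20.2%). Members that cleared the filter through 1 group only had to differ, and these counts are a description.

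Against parental cells, clone II had 2 risen members (Ccnd2 and Ccnd1 on 1383075_at) and none that fell, where 3.99% and 5.74% of all tested probe sets did. That count moved with the settings: 1 rose and 2 fell with the filter at the 60th percentile, 1 rose and 0 fell without either parental array or without clone II replicate 1, and 2 rose and 1 fell without clone I. At the 60th percentile no Ccnd1 probe set was tested. The other GLI1 arrays had 4 risen and 3 fallen members (Ccnd3, Cdkn2c and Rb1), where 5.57% and 6.83% did. For clone II against the other GLI1 arrays, leaving Ccnd2 aside, limma called none of 11 member probe sets, of which 5 had an unadjusted p under 0.05; only 0.129% of all tested probe sets were called there. Leaving Ccnd2 aside again, both clone II arrays lay between the other GLI1 arrays and the parental arrays for 6 of the 11 tested probe sets, where 9.50% of all tested probe sets did. These 6 stand for 4 genes, Ccnd1 on 3 probe sets, Ccnd3, Cdkn2c on 1370054_at and Rb1, and the count is a description. Of the 3 untested probe sets, Cdkn1a on 1387391_at showed the same order. Markers moved between these arrays as well. Krt8 was 8.99-fold lower in clone II than in the other GLI1 arrays (log2 -3.17, SE 0.29, adjusted p = 0.0157, limma). Epcam was 4.01-fold lower without passing (adjusted p = 0.106). The fibroblast marker Ogn was 15.8-fold higher in clone II (log2 3.98, SE 0.24, adjusted p = 0.00177). The other tested fibroblast markers were lower in clone II without passing (Col1a1 log2 -1.66, Col3a1 -1.35 and Pdgfra -1.18). The part of all these markers in the clone differences was not tested. A call in the other GLI1 arrays that clone II lacks is thus not a difference that was itself called.

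The genes whose log2 signal followed Ccnd2 most closely over the 6 arrays were Plod1, a collagen-modifying hydroxylase (Pearson r = 0.995), Hspa12a (0.994), Itih3, a hyaluronan-binding protease inhibitor chain (0.993), Mtres1 (0.992) and the POU factor gene Pou3f1 (0.99). Pou3f1 shared the clone step: its log2 signal was 9.03 and 9.64 in clone II and 13.80 and 12.80 in the other GLI1 arrays, against 5.18 and 4.15 on the parental arrays. For Ccnd1, read by 1371643_at, they were Eif4ebp1, a translation repressor (0.99), Anapc16, a subunit of the anaphase-promoting complex (0.989), the glutamine transporter gene Slc1a5 (0.986), Nfatc1 (0.985) and Fbxo2 (0.983). These are the highest of 1583 tested probe sets with a log2 range of at least 2, the 6 points share the split between GLI1 and parental cells, and the values are a description.

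Beyond the 10 genes, several E2F factors were higher in GLI1 arrays. Of 11 tested pocket protein and E2F genes 5 rose, 1 fell and 5 did not pass, with a median log2 difference of 0.58. Over all tested probe sets 5.84% rose and 7.25% fell. E2f8, a repressor-type E2F of S phase, rose by log2 1.36 (SE 0.23, adjusted p = 0.00582), the activator E2f1 by 1.09 (SE 0.29, adjusted p = 0.0417) and E2f4 by 0.76 (SE 0.18, adjusted p = 0.0244). E2f2 and E2f7 also rose. Of 15 alternative settings, E2f1 lost its call in 9, and E2f2 and E2f7 in 10 each. No filter and no intensity trend were among these settings for each of E2f1, E2f2 and E2f7. E2f4 lost its call in 6 of the 15 settings and E2f8 in 2. Rbl2, a pocket protein of the retinoblastoma family that acts in resting cells, fell by 1.16 (SE 0.24, adjusted p = 0.0164), while its relative Rbl1 gave 0.12 (adjusted p = 0.768). The counts depended on single arrays: without parental replicate 1 none of this list was called, without parental replicate 2 only E2f8, and 1 rose and 1 fell where clone I, or else clone II replicate 2, was left out.

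**Figure D4:**
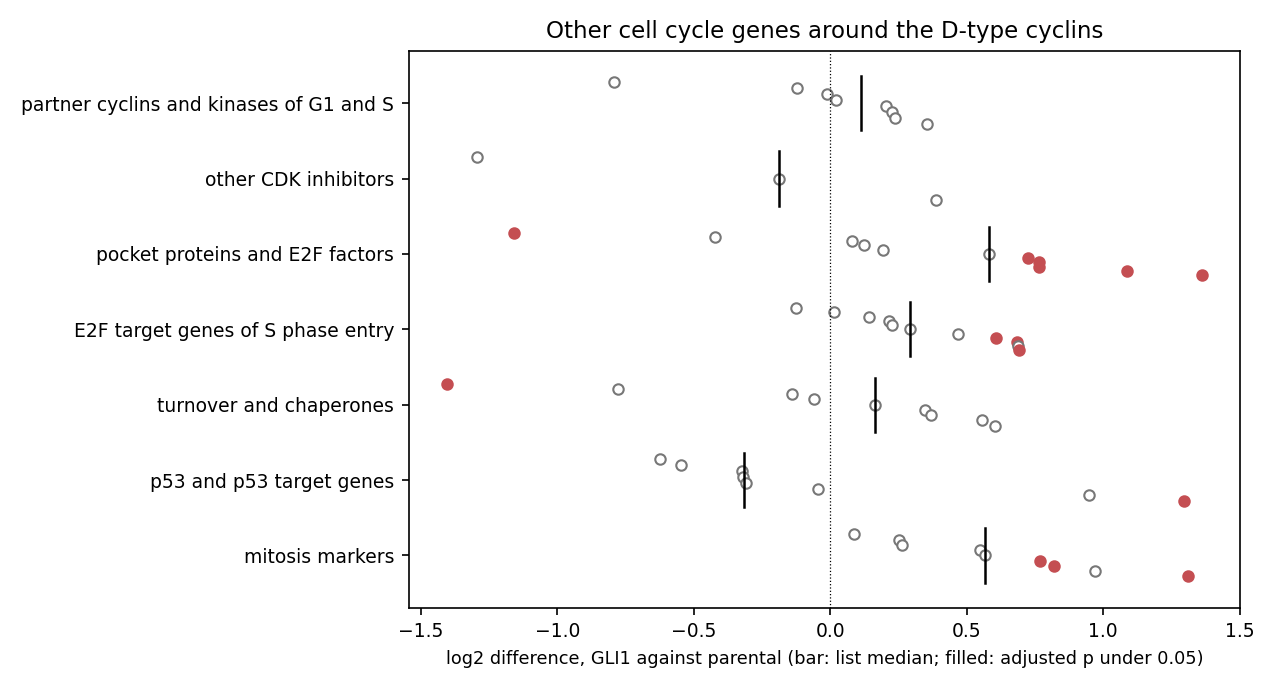
Log2 difference of GLI1 against parental arrays (horizontal axis, 4 against 2 arrays) for each tested gene of 7 lists, 1 point per gene. Filled red points have an adjusted p under 0.05 and black bars are list medians; the filled points lie mostly among the E2F factors, the E2F target genes and the mitosis markers, to the right of 0, with Rbl2 and Fbxo4 to the left.

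Of 11 tested E2F target genes of S phase entry 3 rose, 0 fell and 8 did not pass (median 0.29). For these and the mitosis markers below, the shares over all tested probe sets were 5.84% rising and 7.25% falling. Mcm7 rose by log2 0.69 (SE 0.15, adjusted p = 0.02) and Mcm6 by 0.68 (SE 0.17, adjusted p = 0.032), both subunits of the replicative helicase, and Pcna, the polymerase clamp, by 0.61 (SE 0.17, adjusted p = 0.0443). None of the 3 was called without either parental array, without clone I or with no filter. Of 9 tested mitosis markers 3 rose and 6 did not pass (median 0.57): Aurkb by log2 1.31 (SE 0.22, adjusted p = 0.00648), Bub1 by 0.82 (SE 0.16, adjusted p = 0.013) and Top2a by 0.77 (SE 0.19, adjusted p = 0.0278). Without parental replicate 1 none of these was called, and without parental replicate 2 only Aurkb. The marker Mki67 gave 0.09 (adjusted p = 0.74).

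The later G1 and S partners gave no call: 0 of 8 passed, among them Ccne1 (0.35, adjusted p = 0.318), Ccna2 (0.24, 0.553) and Cdk2 (0.23, 0.606), by limma, and the list's median was 0.11. None of the 3 other kinase inhibitors Cdkn1c, Cdkn2a and Cdkn2d passed over the whole GLI1 group. Cdkn1c, a CIP/KIP inhibitor, had 4462 and 3203 in clone II, 51885 with no clone given and 18411 in clone I, against 5746 and 11921 in the parental arrays; it rose in the other GLI1 arrays (log2 1.90, SE 0.50, adjusted p = 0.0414), and clone II minus the other GLI1 arrays was -3.03 (adjusted p = 0.0859). Cdkn2a, a gene that encodes an INK4 inhibitor, had 16541 and 14183 in clone II, 5390 with no clone given and 9939.7 in clone I, against 29862 and 22619 in the parental arrays. It fell in the other GLI1 arrays (log2 -1.83, SE 0.30, adjusted p = 0.00654). Which Cdkn2a transcripts the probe set reads was not examined. Of 9 tested genes for turnover and chaperones 1 fell, where 7.25% of all tested probe sets did. It was Fbxo4, an F-box protein reported to direct cyclin D1 to degradation (log2 -1.41, SE 0.38, adjusted p = 0.0408). That call was lost when parental replicate 1 (adjusted p = 0.277), parental replicate 2 (0.139) or either other GLI1 array (0.052 and 0.0754) was left out, and with median centring (0.0639). Of 8 tested p53 pathway genes 1 rose, where 5.84% of all tested probe sets did. It was Sesn2 (log2 1.30, SE 0.30, adjusted p = 0.0227), with a second probe set that did not pass (0.22, adjusted p = 0.849). Leaving out parental replicate 1 (log2 1.07) or 2 (log2 1.52) ended the Sesn2 call. Mdm2, the p53 target that restrains p53, gave -0.05 (adjusted p = 0.923).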

How the data were processed

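Each deposited value is a MAS5 signal, a linear intensity given once per probe set and array, per the submitters' processing notes and the values themselves; the 2% trimmed mean computed here was 2500.07 to 2501.07 on every array. Version, detection calls and genome build are not given in the sources used here. The labels call the arrays biological replicates without saying how cultures were kept apart, so p-values reflect only how far these arrays spread, which may be technical, and their number limits the precision.

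Signals under 1 were set to 1 and log2 was taken. The 57 control probe sets were left out, and probe sets with a mean log2 signal above the 40th percentile (8.33) were tested, 18625 of 31042. Groups were compared with limma 3.58.1 (R 4.3.3; lmFit, eBayes with intensity trend, two-sided, Benjamini-Hochberg over all tested probe sets, threshold 0.05): a 2-level model (4 residual degrees of freedom) and a 3-level model (3). A probe set was called where its adjusted p lay under this threshold, and only called probe sets are said to have risen or fallen. Probe sets were named from a platform table: 20826 had 1 symbol, 436 several and 9780 none. The levels of different probe sets were not compared.

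Members, lists and tests were chosen with earlier results of these data known. List genes were counted on the probe set of highest mean. From each list at most 4 called genes were named, taken by adjusted p, plus at most 2 in the minority direction; Rbl1, Mki67, Mdm2, Ccne1, Ccna2, Cdk2, E2f2, E2f7, Cdkn1c, Cdkn2a and Pou3f1's values were added after values were seen. Of the list genes called in GLI1 against parental cells, Sesn2 and Top2a had another tested probe set. The named list genes that were not called there were not searched for other probe sets. The procedure was tested on simulated data.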

Additional observations from a re-analysis of the deposited data

How the results depend on the processing

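Ccnd2 kept its call in all 15 settings of GLI1 against parental cells, with log2 differences of 4.24 to 5.07. The 6 members called there kept their direction in every setting, and the 5 other calls were each lost in 3 to 7 settings. With the filter at the 60th percentile the Ccnd1 probe sets were not tested at all, so they drop out of the count below. The count of called members was 6, and 3 with the filter at the 60th percentile, 2 without the intensity trend, 1 without the 2 arrays of highest GAPDH ratio, and 1 to 7 with 1 array left out. Over all probe sets, 2438 were called in GLI1 against parental cells, and 312 without those 2 arrays or 510 to 3030 with 1 array left out. For clone II against parental cells the count was 1812, and 1147 without the trend, 241 without the 2 arrays, and 414 to 2157 with 1 array left out. For the other GLI1 arrays it was 2310, and 599 without the 2 arrays or 632 to 2102 with 1 left out. For clone II against the other GLI1 arrays it was 24, and 37 with median centring, 10 with quantile normalization, 11 with no filter, 4 at the 60th percentile, 4 without the trend, 7 without the 2 arrays and 1 to 94 with 1 left out. The causes were not tested. Where a group kept 1 array, that array was assumed to vary like the others.

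Median centring moved the median log2 difference of all tested probe sets to 0.17, against 0.005, and made 60.6% of the calls rises, against 44.6% (58.3% against 41.0% in clone II); Rb1 and Cdkn2c then fell short of the threshold. With the clone II arrays averaged, Cdkn2b passed as well (adjusted p = 0.0322). The labels do not say whether the replicate numbers pair the samples, so the main fit used no pairing. Same-numbered deviations correlated at 0.104 between the other GLI1 arrays and clone II. The values were 0.0681 between the other GLI1 arrays and parental cells and 0.321 between clone II and parental cells. Whether same-numbered arrays share a batch was not tested. With the replicate block, 89 probe sets were called for clone II against the other GLI1 arrays and 2627 in GLI1 against parental cells, Ccnd1 1371643_at was not called (adjusted p = 0.0529) and Cdkn2b was (0.0278). The block also brought past the threshold Cdkn2b in clone II (0.0441) and in the other GLI1 arrays (0.0379), and Cdkn2c (0.0382) and Rb1 (0.0158) in clone II, so that 2 members rose and 3 fell in clone II. List counts under these settings were added after seeing the data.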
